A study of Mus musculus with 22 samples.

Results

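The genes described here are 9 transcripts of the lung epithelium, measured in sorted myeloid cells of mouse lung: Sftpc, Sftpb, Sftpa1 and Sftpd, which encode the surfactant proteins, Slc34a2, Ager, Scgb1a1, Scgb3a2 and Epcam. They came from a fixed list and not from a rule on their values. The list was chosen with earlier results of these data known. All 9 were among the 31116 genes present in both count tables. RNA was sequenced from 22 samples, 10 of alveolar macrophages sorted as SigF+CD11b- cells and 12 of Ly6Chi monocytes sorted as CD11b+ cells, from digested lungs of C57BL/6 mice. All animals, controls included, carried the SP-CI73T allele of Sftpc, a mutant form of surfactant protein C, and a neomycin cassette kept its level low until tamoxifen, given once by gavage to adults, switched on a Flp recombinase that removed the cassette. The recombinase was placed at the Rosa26 locus, so it was not limited to the epithelium. The study's methods describe the mice given tamoxifen as homozygous. The control groups, labelled untreated, held 4 macrophage and 4 monocyte samples. For the sequenced monocytes the study describes the controls as oil-treated mice with the mutant allele, while its general methods pool oil-treated mice with tamoxifen-treated ones that lacked the recombinase. The groups taken 3 d after tamoxifen held 3 macrophage and 4 monocyte samples, and those taken 14 d after it held 3 and 4. No source used here says which samples came from the same animal, so the tests measure the spread between samples.

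Gas exchange in the lung rests on a thin lining of alveolar type 1 (AT1) cells and on alveolar type 2 (AT2) cells, which make surfactant, the film of lipid and protein that lowers surface tension in the air spaces. SP-B and SP-C are small hydrophobic proteins that spread this film, whereas SP-A and SP-D are collectins, secreted lectins of innate defence. Club cells of the small airways secrete uteroglobin family proteins. Alveolar macrophages lie on this lining and take up surfactant and dying cells, and neither they nor monocytes are known as makers of surfactant proteins.

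Sequencing depth was 15451460 to 28789639 counted reads per monocyte sample and 4610720 to 17074863 per macrophage sample, with the lowest depths, 4610720 to 6838893, in the 14 d macrophages. Transcripts of the sorted surface proteins followed the labels in the controls, but less so in 14 d macrophages. Ly6c2, which encodes the sorted Ly6C protein, averaged 2870 CPM (counts scaled to the library size, which the TMM method adjusted) in control monocytes and 2.22 CPM in control macrophages, and Siglecf, which encodes the sorted SigF protein, averaged 304 CPM in control macrophages and 14.0 CPM in control monocytes. In 14 d macrophages Siglecf averaged 112 CPM, and Itgam, which encodes the CD11b protein that these cells were sorted to lack, was at 76.3 CPM (55.0 to 102), against 1.76 CPM in control macrophages, 11.5 CPM in 3 d macrophages and 304 CPM in control monocytes. The part of this in the 14 d results was not tested. Control monocyte samples 3 and 4 stood apart from samples 1 and 2: the macrophage transcripts Siglecf and Marco were highest there, at up to 29.2 and 64.0 CPM, against lowest control values of 3.55 and 3.23 CPM. Results that rest on these samples are given with and without them. The 14 d samples of both cell types carried 433 to 3033 reads of Y-linked genes, against at most 3 reads in any other sample, so sex and time after tamoxifen cannot be told apart at 14 d.

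The 9 transcripts together were a trace of every sample. They made up 0.0133% to 0.0205% of the counted reads of control macrophages, 0.0431% to 0.0741% at 3 d and 0.0141% to 0.0284% at 14 d. In monocytes they made up 0.00631% to 0.0484% in controls, 0.00532% to 0.0128% at 3 d and 0.00352% to 0.014% at 14 d. All 9 passed the filter on low counts in every comparison. The lowest count of any of them in a sample was 3 reads, for Scgb3a2 in a 14 d monocyte sample.

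Sftpc, which encodes surfactant protein C and is made by AT2 cells (ENSMUSG00000022097, GRCm38 chr14:70520949-70524081, minus strand), was lower after tamoxifen in both cell types. In macrophages its level was 38.6, 36.8, 39.3 and 36.5 CPM in the 4 control samples. It was 12.4, 7.61 and 14.9 CPM at 3 d and 16.4, 19.8 and 27.9 CPM at 14 d. The control values lay within 3 CPM of each other, and neither later group overlapped with them. By library totals without the TMM adjustment, 14 d sample 3 was at 35.79 CPM, within the control range of 32.64 to 36.14 CPM. In control monocytes the levels were 46.7, 18.1, 104 and 80.0 CPM. They were 9.02, 7.14, 10.5 and 6.02 CPM at 3 d and 9.60, 10.9, 33.8 and 7.94 CPM at 14 d. All 3 d monocyte samples lay below all controls, while 1 of the 14 d samples, sample 3, lay above the lowest control.

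The fall of Sftpc at 3 d was larger than the spread between samples in either cell type. In macrophages the log2 fold change was -1.71 (SE, the standard error, 0.22, edgeR q = 0.00125), where q is the Benjamini-Hochberg adjusted p of edgeR's two-sided quasi-likelihood test over all genes tested. A gene is called here at q under 0.05 with a fold change above 1.5. In monocytes the log2 fold change at 3 d was -2.93 (SE 0.56, edgeR q = 0.00173), and without control monocyte samples 3 and 4 it was -2.05 (edgeR q = 0.0199). Sftpc was the only one of the 9 genes called at 3 d in macrophages, where 1.27% of all 20944 genes tested were called and 0.224% were called lower. It was also called at 3 d under each of the other settings tried, in both cell types. The study describes the mice given tamoxifen as homozygous, and the counts, which are per gene, do not show the sequence of the allele.

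At 14 d Sftpc was still below control. In macrophages the log2 fold change was -0.83 (SE 0.22, edgeR q = 0.00313), and it was called higher at 14 d than at 3 d, by 0.88 (edgeR q = 0.00487). The 14 d call in macrophages was lost with library size scaling (-0.38, edgeR q = 0.135) and with upper quartile scaling (-0.47, edgeR q = 0.0815), and the difference from 3 d was lost without 3 d sample 2 (0.42, edgeR q = 0.0883). In monocytes the log2 fold change at 14 d was -2.0 (SE 0.54, edgeR q = 0.0363). That call was lost without control samples 3 and 4 (-1.05, edgeR q = 0.32) and without each of 6 single samples.

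**Figure D1:**
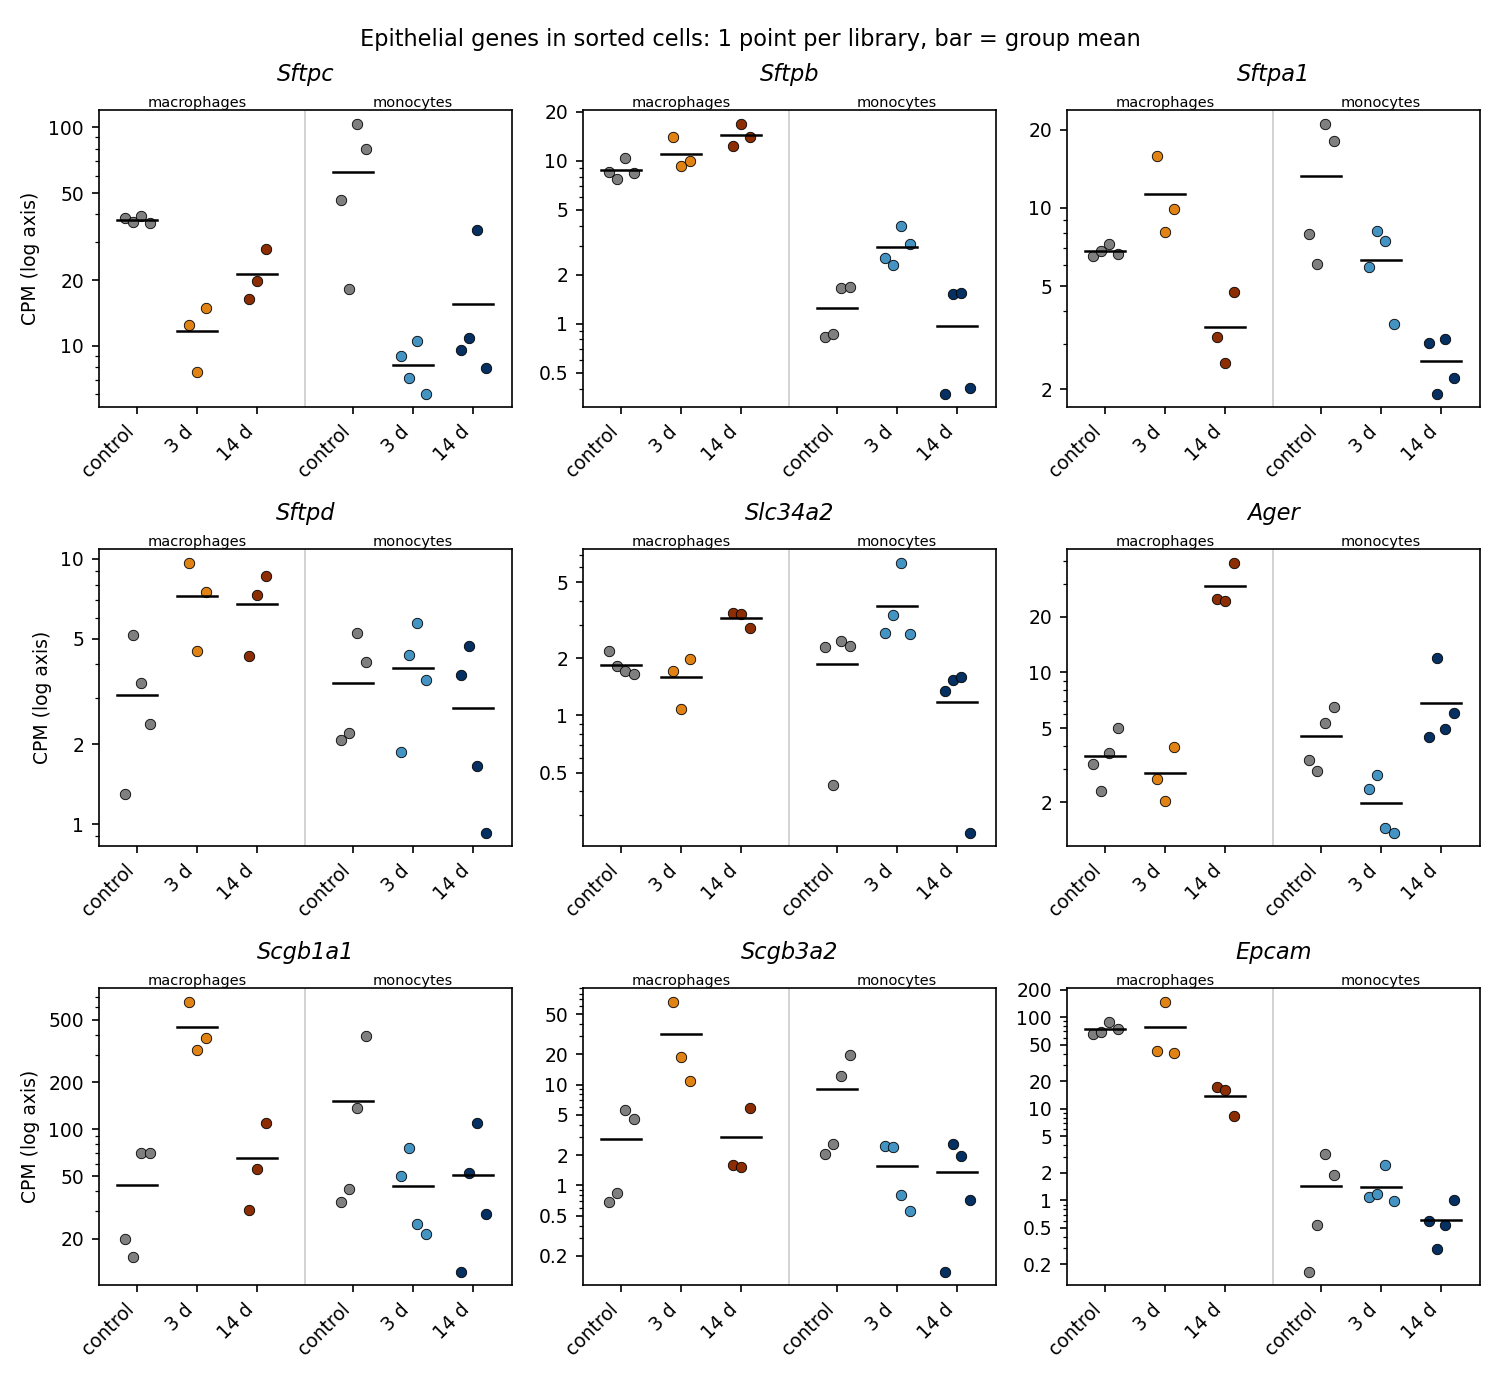
Level of each of the 9 genes in every sample, in CPM on a log axis, with macrophages on the left and monocytes on the right of each panel. Points are samples and bars are group means, and Sftpc in 3 d samples of both cell types lies below all controls of that cell type, whose lowest values are 36.5 and 18.1 CPM.

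Sftpb encodes surfactant protein B, the other hydrophobic surfactant protein (ENSMUSG00000056370, GRCm38 chr6:72304610-72314371, plus strand). In macrophages it was at 8.49, 7.75, 10.4 and 8.43 CPM in controls. It was at 13.9, 9.31 and 10.01 CPM at 3 d and at 12.2, 16.9 and 14.0 CPM at 14 d. The 14 d values all lay above the controls, and the 3 d values overlapped with them. The log2 fold change was 0.34 at 3 d (SE 0.21, edgeR q = 0.497) and 0.72 at 14 d (SE 0.21, edgeR q = 0.00718). The latter call was lost without 14 d sample 2 (0.56) or any single 3 d sample (0.53 to 0.58), where the fold was below the threshold.

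Sftpb was rarer in monocytes. Its level was 0.829, 0.861, 1.65 and 1.67 CPM in controls and 2.52, 2.29, 3.98 and 3.11 CPM at 3 d. At 14 d it was 0.371, 1.53, 1.54 and 0.403 CPM, which overlapped with the controls. All 3 d monocyte samples lay above all controls and above all 14 d samples. Sftpb rose at 3 d, with a log2 fold change of 1.24 (SE 0.50, edgeR q = 0.0475), and was lower at 14 d than at 3 d by 1.63 on the log2 scale (edgeR q = 0.0179). The 3 d call lay near the threshold, and it was lost without any of 6 single samples (1.04 to 1.36).

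Sftpa1 encodes SP-A (ENSMUSG00000021789, GRCm38 chr14:41131782-41136452, plus strand). In macrophages its level was 6.51, 6.84, 7.28 and 6.64 CPM in controls. It was 15.8, 8.07 and 9.91 CPM at 3 d and 3.17, 2.52 and 4.73 CPM at 14 d. The 3 d values lay above and the 14 d values below all controls. By library totals without the TMM adjustment, 14 d sample 3 was at 6.073 CPM, within the control range of 5.945 to 6.501 CPM. The log2 fold change was 0.73 at 3 d (SE 0.26, edgeR q = 0.2) and -0.99 at 14 d (SE 0.30, edgeR q = 0.00811), and between 3 d and 14 d it fell by 1.72 (edgeR q = 0.000455). With library size or upper quartile scaling the fall from control at 14 d was not called (-0.54 and -0.63).

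In monocytes Sftpa1 stood at 7.96, 6.08, 21.1 and 18.1 CPM in controls. It stood at 5.93, 8.17, 7.47 and 3.58 CPM at 3 d and at 3.01, 1.92, 3.14 and 2.22 CPM at 14 d. All 14 d values lay below all controls and all 3 d values, whereas the 3 d values overlapped with control samples 1 and 2. The log2 fold change was -1.08 at 3 d (SE 0.38, edgeR q = 0.0272) and -2.37 at 14 d (SE 0.40, edgeR q = 0.00164). The 3 d call was lost without any of 5 single samples, controls 3 and 4 and 3 d samples 1, 3 and 4 (-1.10 to -0.81). Without control samples 3 and 4 together the change at 3 d was -0.22 (edgeR q = 0.614) and that at 14 d was -1.44 (edgeR q = 0.0232).

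The RefSeq promoter table on GRCm38.p6 held 5 of the 9 genes, Sftpb, Sftpa1, Epcam, Ager and Slc34a2. The 250 bases before the transcript start are printed here for Sftpb and Sftpa1, the 2 surfactant protein genes that it held. Capitals mark CTCAAG, the core letters of sites bound by NKX2-1, the transcription factor that drives surfactant genes in AT2 cells, searched on both strands with no overlap with another motif.
Sftpb, chr6:72304360-72304609, plus strand: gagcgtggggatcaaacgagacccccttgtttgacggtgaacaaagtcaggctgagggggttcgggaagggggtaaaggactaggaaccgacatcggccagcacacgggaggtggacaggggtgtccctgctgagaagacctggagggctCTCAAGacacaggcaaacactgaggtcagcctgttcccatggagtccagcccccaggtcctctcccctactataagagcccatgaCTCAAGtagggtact
Sftpa1, chr14:41131538-41131787, plus strand: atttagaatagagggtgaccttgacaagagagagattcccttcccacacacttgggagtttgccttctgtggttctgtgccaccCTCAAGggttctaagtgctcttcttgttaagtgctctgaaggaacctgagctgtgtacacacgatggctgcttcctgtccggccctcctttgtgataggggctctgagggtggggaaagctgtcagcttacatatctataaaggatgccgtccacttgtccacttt
Sftpb held the letters 2 times, starting 100 and 15 bases before the transcript start, and Sftpa1 held them 1 time, starting 166 bases before it. The other 3 promoters did not hold them in this window. Of all 32851 promoters in the table, 13.3% held them in the same window. Nkx2-1 itself was nearly absent from these cells, at 0.0525 CPM in control macrophages, 0.0505 CPM in control monocytes and 0 reads in all 3 d monocyte samples. It was at 3.6 ± 2.51 CPM (SD, n = 3) in 14 d macrophages. Transcripts of other lineages were also higher there. Cdx2, listed as from outside the lung, was at 2.92 CPM against 0.108 CPM in control macrophages. Trp63, of the ciliated and basal cell list, was at 2.0 CPM against 0.187 CPM. The part of such wider detection in the Nkx2-1 reads was not tested.

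AT2 cells make both Sftpc and Sftpb, and the ratio of their read counts within a sample was followed as a measure. Scaling of the libraries does not change this ratio. With 0.5 added to each count it was 4.53, 4.73, 3.79 and 4.31 in control macrophages, 0.892, 0.817 and 1.49 at 3 d and 1.34, 1.17 and 1.98 at 14 d. In monocytes it was 55.0, 20.5, 62.4 and 47.4 in controls and 3.56, 3.10, 2.64 and 1.93 at 3 d. At 14 d it was 24.4, 7.03, 21.6 and 18.8. The 3 d samples lay below all controls in both cell types, and the 14 d monocyte samples lay above all 3 d ones. The ratio does not show which cells the reads of either gene came from. Scgb1a1, a club cell transcript, was at 320 to 653 CPM in 3 d macrophages, against 15.1 to 70.6 CPM in controls. In monocytes it was at 21.4 to 75.6 CPM at 3 d and 34.0 to 392 CPM in controls. The part of club cell reads in the ratio was not tested.

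On the log2 scale the Sftpc to Sftpb ratio fell by 2.07 at 3 d and by 1.57 at 14 d in macrophages (4 controls against 3 samples, exact two-sided permutation p = 0.0286 each, adjusted p = 0.0429 over 6 comparisons). In monocytes it fell by 3.96 at 3 d (4 against 4, exact permutation p = 0.0286, adjusted p = 0.0429) and regained 2.57 between 3 d and 14 d (exact permutation p = 0.0286, adjusted p = 0.0429). For these sample numbers 0.0286 is the smallest p that the exact test can give. The monocyte difference of -1.39 between 14 d and control did not pass (exact permutation p = 0.0857, adjusted p = 0.103), nor did the macrophage difference of 0.51 between 14 d and 3 d (exact permutation p = 0.3, where 0.1 is the smallest possible).

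With Sftpa1 in place of Sftpb, the ratio at 14 d overlapped with that of the controls in both cell types, while both genes were below control. The log2 fold changes at 14 d in macrophages and monocytes were -0.99 and -2.37 for Sftpa1 and -0.83 and -2.0 for Sftpc. The Sftpc to Sftpa1 ratio was 5.35 to 5.90 in control macrophages, 0.783 to 1.5 at 3 d and 5.09 to 7.68 at 14 d. In monocytes it was 2.97 to 5.85 in controls, 0.874 to 1.68 at 3 d and 3.17 to 10.7 at 14 d. It fell at 3 d by 2.42 on the log2 scale in macrophages and by 1.73 in monocytes without overlap between the groups (exact permutation p = 0.0286 each), and the adjusted p of both was 0.0572. The differences between 14 d and control were 0.14 in macrophages (exact permutation p = 0.457) and 0.21 in monocytes (exact permutation p = 0.714).

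**Figure D2:**
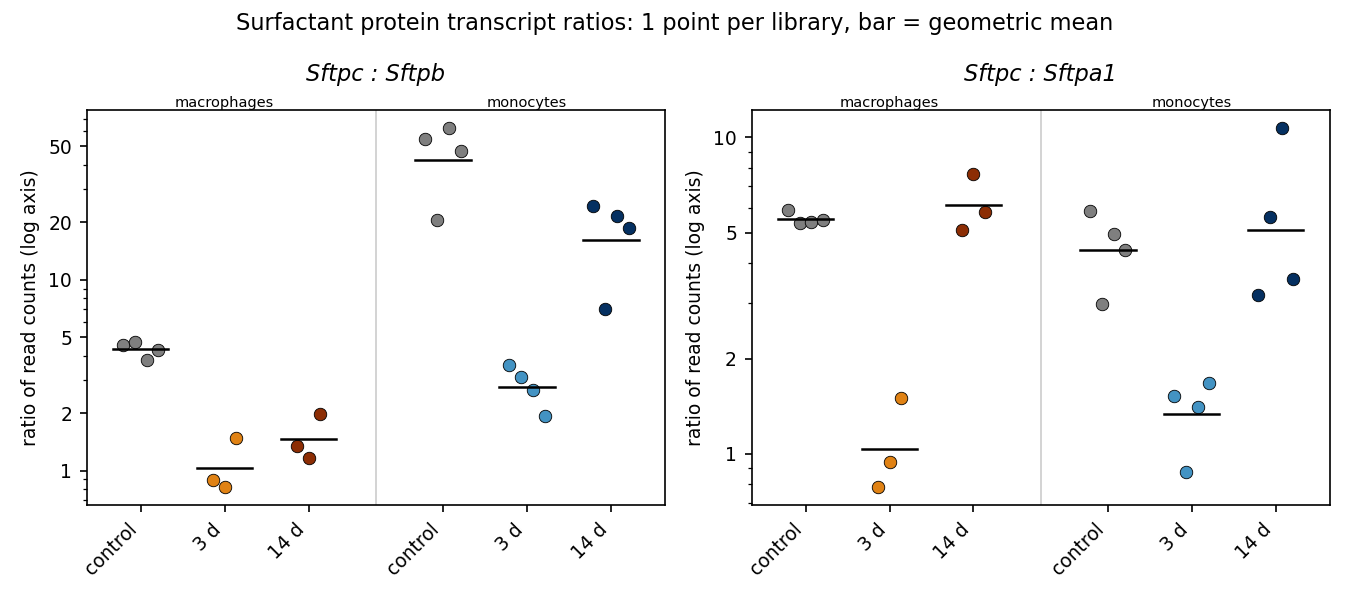
Ratio of Sftpc reads to Sftpb reads (left) and to Sftpa1 reads (right) in every sample, on log axes, with 0.5 added to each count. Points are samples and bars are geometric means, and the 3 d samples of both cell types lie below their controls in both panels, with the Sftpa1 ratio of 14 d macrophages at 5.09 to 7.68.

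Sftpd, which encodes SP-D (ENSMUSG00000021795, GRCm38 chr14:41172214-41185149, minus strand), was called in 1 comparison, 14 d macrophages against control. Its macrophage levels ranged from 1.30 to 5.17 CPM in controls, from 4.50 to 9.67 CPM at 3 d and from 4.32 to 8.62 CPM at 14 d. The log2 fold change in macrophages was 1.24 at 3 d (SE 0.40, edgeR q = 0.148) and 1.14 at 14 d (SE 0.41, edgeR q = 0.0214). The 14 d call was lost without any of 4 single samples, controls 1 and 4 and 14 d samples 2 and 3 (0.88 to 1.04). In monocytes its levels overlapped between all groups, from 0.927 to 5.75 CPM, and no comparison called it.

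Slc34a2 encodes the sodium phosphate cotransporter of AT2 cells, which recovers phosphate from surfactant (ENSMUSG00000029188, GRCm38 chr5:53038081-53071664, plus strand). It was among the rarest of the genes, at 1.84 ± 0.241 CPM in control macrophages (SD, n = 4) and 1.87 ± 0.963 CPM in control monocytes (SD, n = 4). Its 14 d macrophage values of 3.46, 3.40 and 2.87 CPM lay above all other macrophage samples. The change from control at 14 d, 0.81 on the log2 scale (SE 0.35, edgeR q = 0.0512), just missed the threshold, and it was called with library size scaling (1.25, edgeR q = 0.00603) and with upper quartile scaling (1.16, edgeR q = 0.00996). In monocytes it was at 2.68 to 6.34 CPM at 3 d and 0.242 to 1.6 CPM at 14 d, without overlap, and it was called lower at 14 d than at 3 d (log2 difference -1.68, SE 0.59, edgeR q = 0.0283), a call lost without 3 d sample 3 (-1.41, edgeR q = 0.0752).

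Ager, the receptor for advanced glycation end products, is a transcript of AT1 cells in the lung (ENSMUSG00000015452, GRCm38 chr17:34597862-34600936, plus strand). In macrophages it was at 3.22, 2.28, 3.67 and 5.05 CPM in controls and at 2.65, 2.02 and 3.96 CPM at 3 d. At 14 d it was at 24.8, 24.2 and 39.1 CPM. The 14 d macrophage samples stood far above all the others, while 3 d and control samples overlapped. The rise at 14 d had a log2 fold change of 3.03 (SE 0.29, edgeR q = 1.4e-06), and it was called under each of the other settings tried.

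In monocytes Ager was at 3.36, 2.96, 5.35 and 6.51 CPM in controls and at 2.36, 2.78, 1.45 and 1.37 CPM at 3 d. At 14 d it was at 4.50, 12.03, 4.95 and 6.01 CPM. All 3 d samples lay below all controls and all 14 d samples. By library totals without the TMM adjustment, 3 d samples 1 and 2 were at 2.895 and 3.323 CPM, above control sample 2 at 2.485 CPM. The fall at 3 d had a log2 fold change of -1.19 (SE 0.39, edgeR q = 0.019), and without control samples 3 and 4 it was -0.72 (edgeR q = 0.179), a call lost also without control sample 4 or 3 d sample 3 alone. The rise between 3 d and 14 d was 1.78 (SE 0.39, edgeR q = 0.00356), and the difference between 14 d and control was 0.59 (edgeR q = 0.391).

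Scgb1a1, the uteroglobin that is the main secreted product of club cells (ENSMUSG00000024653, GRCm38 chr19:9083636-9087958, minus strand), reached the highest CPM of the 9. In macrophages it was at 19.9, 15.1, 70.0 and 70.6 CPM in controls, at 653, 320 and 380 CPM at 3 d and at 30.5, 56.0 and 110 CPM at 14 d. The 3 d samples lay above all other macrophage samples, and the controls fell into a lower and a higher pair. The log2 fold change at 3 d was 3.36 (SE 0.70), but with this spread it missed the threshold (edgeR q = 0.0739), whereas DESeq2 called it (3.42, adjusted p = 7.17e-05). Between 3 d and 14 d Scgb1a1 fell by 2.79 on the log2 scale (SE 0.76, edgeR q = 0.0141).

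Scgb3a2, which encodes a secretoglobin of the same family (ENSMUSG00000038791), followed the same pattern in macrophages. It was at 0.685, 0.836, 5.57 and 4.58 CPM in controls and at 66.4, 18.8 and 10.95 CPM at 3 d. At 14 d it was at 1.58, 1.51 and 5.92 CPM. The 3 d samples again lay above all others, and control samples 3 and 4 were the higher pair for both genes. The log2 fold change was 3.44 at 3 d (SE 0.91, edgeR q = 0.135, and adjusted p = 0.0108 by DESeq2), and between 3 d and 14 d it fell by 3.47 (SE 1.08, edgeR q = 0.0228). The fall of Scgb3a2 was lost without 3 d sample 1 or 14 d sample 1 or 2 (-3.21 to -2.49), and that of Scgb1a1 without 14 d sample 2 (-2.71, edgeR q = 0.0503).

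In monocytes both secretoglobins were highest in control samples 3 and 4. Scgb1a1 was at 34.0, 41.4, 137 and 392 CPM in controls and Scgb3a2 at 2.03, 2.58, 12.2 and 19.6 CPM. After tamoxifen Scgb1a1 ranged from 21.4 to 75.6 CPM at 3 d and from 12.2 to 109 CPM at 14 d. Scgb3a2 ranged from 0.565 to 2.44 CPM at 3 d and from 0.139 to 2.56 CPM at 14 d. Both overlapped with the controls at either time. For Scgb3a2 the log2 fold change at 3 d was -2.54 (SE 0.85, edgeR q = 0.0228), and without control samples 3 and 4 it was -0.63 (edgeR q = 0.523). For Scgb1a1 it was -1.81 (SE 0.87, edgeR q = 0.0971), and without those samples it was 0.13 (edgeR q = 0.905).

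Epcam, the epithelial cell adhesion molecule (ENSMUSG00000045394, GRCm38 chr17:87635979-87651129, plus strand), was far more abundant in macrophages than in monocytes. In macrophages it was at 65.9, 69.9, 87.9 and 73.9 CPM in controls, at 43.4, 148 and 40.8 CPM at 3 d and at 17.3, 15.9 and 8.28 CPM at 14 d. In monocytes it never passed 3.22 CPM. At 3 d the macrophage values fell on both sides of the controls, with a log2 fold change of 0.06 (SE 0.44, edgeR q = 0.97), and without 3 d sample 2, the highest, it was -0.78 (edgeR q = 0.026). At 14 d Epcam fell by 2.42 (SE 0.51, edgeR q = 0.00234), with no overlap between the groups. Krt19 and Cdh1, other transcripts shared by epithelia, were also abundant in control macrophages, at 816 ± 130 and 128 ± 26.6 CPM (SD, n = 4), and both were lower at 14 d (log2 fold changes -2.51, edgeR q = 8.87e-07, and -0.61, edgeR q = 0.0342). They were the only 2 of the 12 transcripts in that list called lower there, and 9 were called higher, with a list median of 2.86. Of the 12 transcripts in the macrophage marker list, 9 were called lower at 14 d, where 22.9% of all genes were. At 3 d 0 of them were called. Ear1, of that list, was at 494 CPM in 1 of the 3 d samples, against a lowest 3 d value of 52.2 CPM. Car4, also of that list, averaged 1140 CPM in control and 3230 CPM in 3 d macrophages. In 3 d monocytes 6 of the 12 were called lower and 1 higher, where Epcam changed by -0.04. The part of the list's changes in the fall of Epcam was not tested. Fewer cells of a type and less RNA per cell cannot be told apart in such bulk samples.

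Set side by side per transcript length, the make-up of the 9 genes differed between the groups. RPKM, the CPM (here from library totals) divided by the exon length in kilobases, was used for this comparison between genes. Scgb1a1 was the most abundant in all but 1 sample, the exception being control macrophage sample 2, where Sftpc was higher. In control macrophages Scgb1a1 gave 28.9% to 63.7% of the summed RPKM, Sftpc 15.1% to 32.3% and Epcam 14.5% to 28.9%. At 3 d Scgb1a1 alone gave 86.3% to 93.1%, and Sftpc gave 0.801% to 1.68%. At 14 d Scgb1a1 gave 57.7% to 77.1%, Sftpc 8.99% to 14.3% and Ager 6.08% to 10.4%, against 0.706% to 1.26% for Ager in controls. In monocytes Scgb1a1 gave 57.1% to 88.0% in controls, 71.2% to 89.9% at 3 d and 63.4% to 85% at 14 d. Sftpc gave 8.26% to 36.1%, 3.91% to 13.9% and 7.91% to 22.9% in these groups, while Sftpb stayed under 3% of the sum in all monocyte samples.

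**Figure D3:**
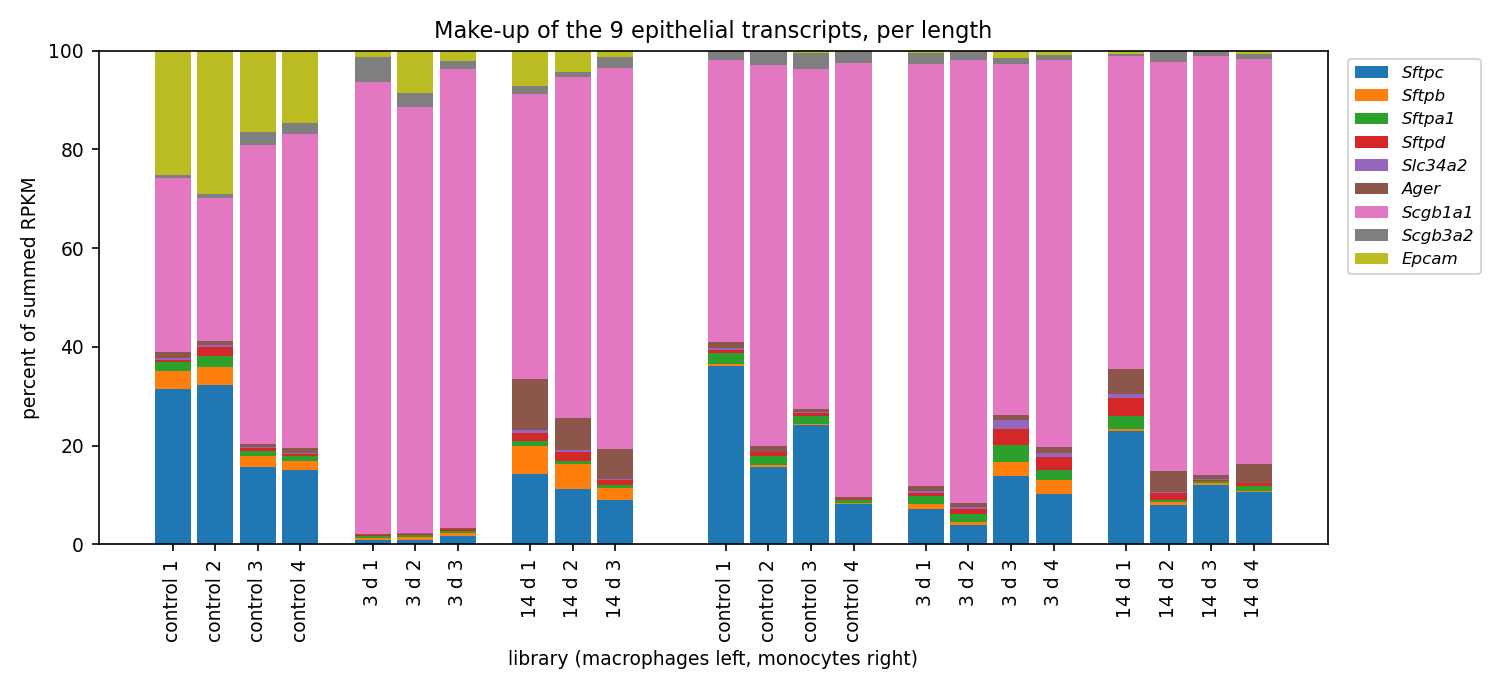
Share of each gene in the summed RPKM of the 9 genes, in percent, with 1 bar per sample, macrophages left and monocytes right. Scgb1a1 fills 86.3% to 93.1% of the 3 d macrophage bars, and the Ager segment is widest in 14 d macrophages, at 6.08% to 10.4%.

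The comparisons of tamoxifen with control, taken over all 9 genes, stood as follows. In macrophages 1 of 9 was called at 3 d, Sftpc, and without 3 d sample 2 there were 4, with Sftpa1 (0.96, edgeR q = 0.0432) and Sftpd (1.53, edgeR q = 0.0267) higher and Epcam lower. At 14 d 6 of 9 were called, against 62.3% of all 20944 genes tested: Sftpb, Sftpd and Ager were higher, as were 39.4% of all genes, and Sftpc, Sftpa1 and Epcam lower, as were 22.9%. The share of members called was thus near that of all genes in this fit. A fit of only genes with mean log2 CPM above 1 called 5014 of 13016 genes at 14 d. The share of all genes called thus depended on the filter, and the comparison with the members is for the reported fit. The median log2 fold change of the 9 was 0.34 at 3 d and 0.57 at 14 d, beside -0.01 and 0.18 over all genes tested. Between 14 d and 3 d, 7 of 9 were called, against 56.4% of all genes, with a median of -0.10 beside 0.16. Sftpc, Ager and Slc34a2 were higher, where 36.3% of all genes were, and Sftpa1, Scgb1a1, Scgb3a2 and Epcam lower, where 20% were. This count was 4 without 14 d sample 2, and the Slc34a2 call was lost without any of 6 single samples (0.59 to 1.03).

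In monocytes 5 of 9 were called at 3 d, against 51.2% of all 22353 genes tested, which again is near the share of all genes in this fit. Lower were Sftpc, Sftpa1, Scgb3a2 and Ager, where 14.4% of all genes were called lower, and higher was Sftpb, where 36.8% were called higher. The median log2 fold change was -1.08 for the 9 and 0.22 for all genes. A fit of only genes with mean log2 CPM above 1 called 1467 of 11060 genes at 3 d, among them only Sftpc of the 9. At 14 d 2 of 9 were called, Sftpc and Sftpa1, both lower, against 8.56% of all genes, of which 5.34% were lower, with a median of -1.24 beside 0.09. Between 14 d and 3 d, 4 of 9 were called, against 46.5% of all genes, with Ager higher (12% of all genes) and Sftpb, Sftpa1 and Slc34a2 lower (34.5%). The 3 d call count was 2 without control samples 3 and 4, Sftpc and Sftpb, 2 without control sample 4 or 3 d sample 4 alone, 3 without control sample 3 or 3 d sample 1, and 1 without 3 d sample 3, Sftpc.

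**Figure D4:**
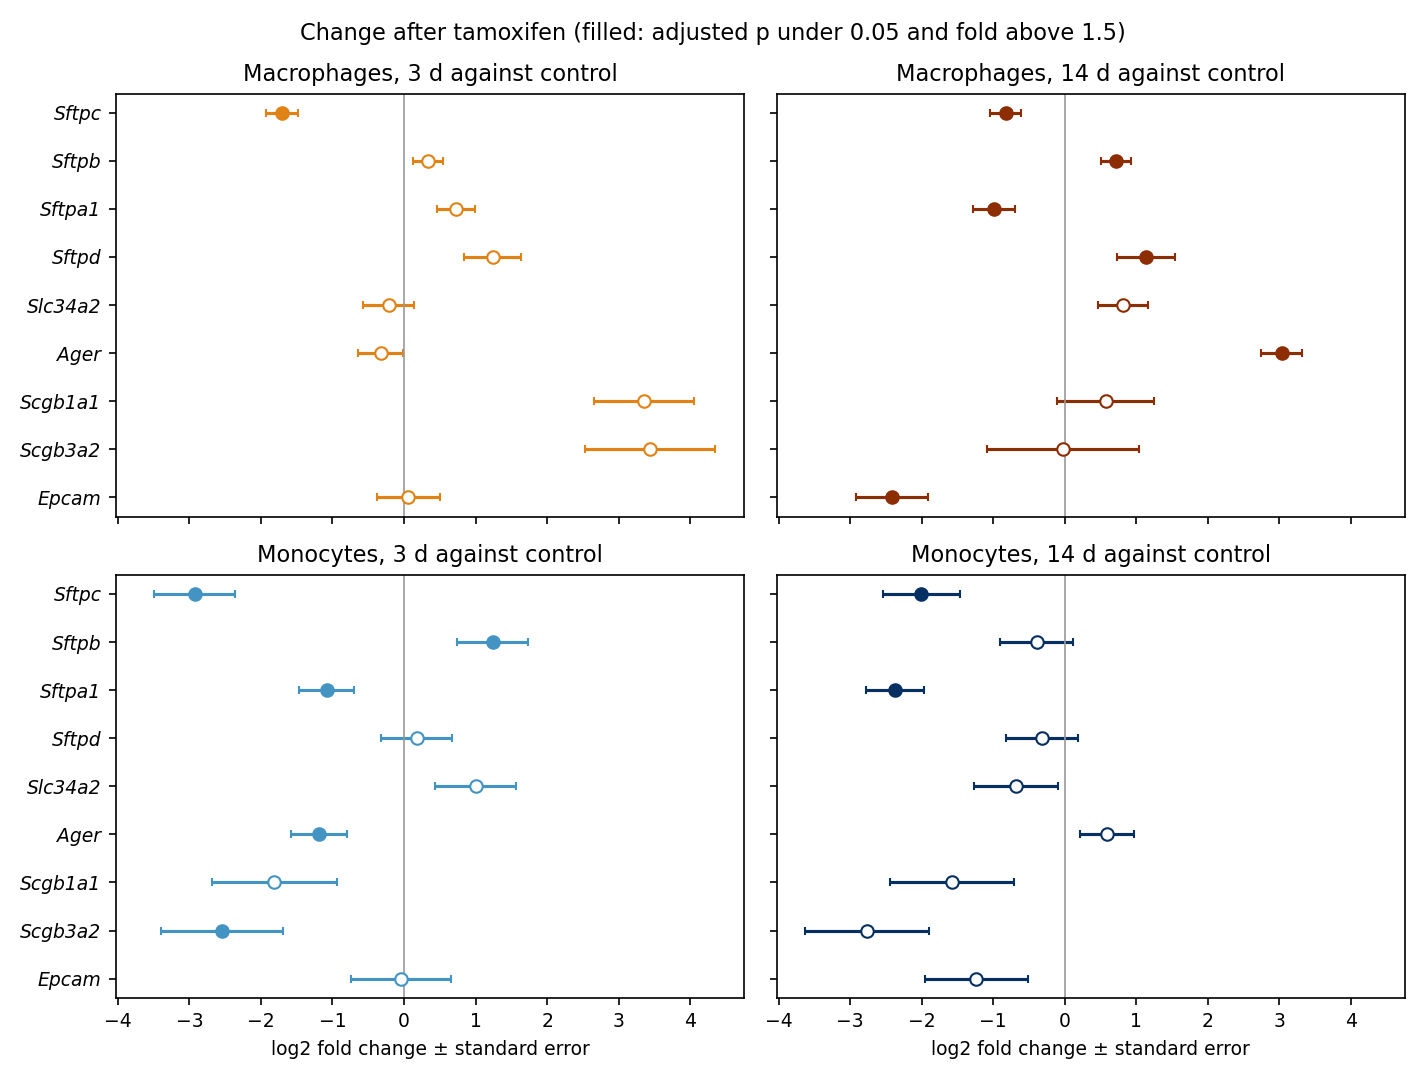
Log2 fold change against control with its standard error for each gene, by cell type and time. Filled points passed q under 0.05 with a fold above 1.5: Sftpc is filled and left of 0 in all 4 panels, and Ager in 14 d macrophages lies farthest to the right of the filled points, at 3.03.

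Control macrophages and control monocytes were compared in a fit over all 22 samples, where the cell types had been processed with tools whose versions the sources do not assign, so that processing and cell type cannot be told apart. Of the 9 genes 4 were called, against 44.2% of all 26692 genes tested, 24.5% higher in macrophages and 19.7% lower. Epcam was higher in macrophages by 5.29 on the log2 scale (SE 0.64, edgeR q = 1.07e-06) and Sftpb by 2.43 (SE 0.38, edgeR q = 5.97e-06). Sftpa1 was lower in macrophages by -1.33 on that scale (SE 0.34, edgeR q = 0.00212) and Scgb1a1 by -2.15 (SE 0.85, edgeR q = 0.0477). Sftpc did not pass, at -1.09 (SE 0.45, edgeR q = 0.0541). The Scgb1a1 call lay near the threshold and was lost without any of 15 single samples (-2.47 to -1.02). Without control monocyte samples 3 and 4 only Epcam (7.36) and Sftpb (2.95) were called, and Sftpa1 and Scgb1a1 were at -0.46 and -0.22.

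The change at 3 d differed between the cell types for 3 of the 9 genes, against 18.7% of all 26692 genes tested and 3.51% with a higher change in macrophages, as an interaction in the same fit. The secretoglobins stood out: relative to monocytes, the change in macrophages was higher by 4.99 for Scgb1a1 (SE 1.24, edgeR q = 0.014) and by 5.80 for Scgb3a2 (SE 1.37, edgeR q = 0.0108). It was higher by 1.64 for Sftpa1 (SE 0.50, edgeR q = 0.0258), a call that was lost without any of 5 single samples and without control monocyte samples 3 and 4 (1.06, edgeR q = 0.116), while both secretoglobins stayed called without them (3.34, edgeR q = 0.0485, and 4.23, edgeR q = 0.0472). For Sftpc the difference of the changes was 1.05 (SE 0.67, edgeR q = 0.266) and was not shown. The median over all genes in this comparison was -0.63.

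The change at 14 d differed between the cell types for 1 of the 9 genes, Ager, against 36.8% of all genes tested and 16.9% with a higher change in macrophages. Its rise was larger in macrophages by 2.11 on the log2 scale (SE 0.52, edgeR q = 0.00287), and the call held without control monocyte samples 3 and 4 (1.86, edgeR q = 0.00794). Without them Epcam was called as well, at -3.40 (edgeR q = 0.00834), beside -1.54 (edgeR q = 0.186) with them. The median over all genes was 0.48 here.

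Wider lists of epithelial transcripts, none of them holding the 9 genes, were read in the same fits. In 3 d macrophages 5 of the 13 club and secretory cell transcripts tested were called higher and none lower, where 1.05% of all genes were called higher, with a list median of 2.62. Bpifb1, which encodes a secreted airway defence protein, rose by 3.45 (edgeR q = 0.0401), and Pigr, the epithelial receptor that carries immunoglobulins into secretions, by 3.20 (edgeR q = 0.0336). Of 12 transcripts shared by epithelia 4 were called higher, among them Krt8, a keratin of simple epithelia (3.14, edgeR q = 0.00514). Of the AT1 list 1 of 12 was called, Hopx (0.88, edgeR q = 0.0249), of the AT2 list 0 of 13 and of the ciliated and basal cell list 0 of 10. Some listed transcripts were abundant in sorted myeloid samples. In control monocytes Hopx averaged 213 CPM, Napsa of the AT2 list 1270 CPM and Hp of the club and secretory list 1470 CPM. In control macrophages these 3 averaged 7.33, 72.8 and 8.37 CPM. Tppp3, of the ciliated and basal cell list, averaged 415 CPM in control monocytes and 432 CPM in control macrophages. Which cells the reads of the listed transcripts came from was not tested.

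In 14 d macrophages the AT2 and AT1 lists moved mostly upwards, in contrast to Sftpc. Of 13 AT2 transcripts tested 8 were called higher and 1 lower, with a median of 1.46, and of 12 AT1 transcripts 9 were higher and 1 lower, with a median of 1.83, where 39.4% of all genes were called higher. Abca3, the lipid pump of surfactant storage bodies, was the AT2 transcript called lower (-1.08, edgeR q = 0.00012), and Lpcat1, an enzyme of surfactant lipid synthesis, was among those higher (1.28, edgeR q = 0.00032). In control macrophages Abca3 averaged 111 CPM, where Sftpc averaged 37.8 CPM, and which cells its reads came from was not tested. Lists of other cells moved in the same samples. The neutrophil list had 7 of 7 tested transcripts higher, with summed levels of 400 to 1590 CPM against 13.5 to 27.3 CPM in controls, although Ly6g, its defining marker, was at 0 to 9 reads. The eosinophil list had 4 of 4 higher (28.4 to 107 CPM against 0.664 to 1.90 CPM), the fibroblast and smooth muscle list 10 of 12 (182 to 376 CPM against 26.5 to 31.6 CPM), and a list of transcripts from outside the lung, such as the liver's Alb, 9 of 11 higher and 1 lower (82.0 to 153 CPM against 48.5 to 59.3 CPM). In these samples 27699 to 30627 genes had at least 1 read, against 21499 to 27616 in the other macrophage samples, despite their lower depth. The part of the other lists and of this wider detection in the changes of Ager and the other genes at 14 d was not tested.

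In monocytes at 3 d the same lists had calls both ways, where 36.8% of all genes were called higher and 14.4% lower. The AT2 list had 3 of 12 higher and 3 lower, with a median of -0.39, the AT1 list 2 of 11 higher and 2 lower, and the club and secretory list 3 of 11 higher and 3 lower. Among the last, Cbr2, a carbonyl reductase of club cells, fell by 1.42 (edgeR q = 0.00214), and Scgb3a1, a further secretoglobin, fell by 2.72 (edgeR q = 0.0417). Of 10 transcripts shared by epithelia 6 were called higher and 1 lower, among them Cdh1, which encodes E-cadherin (2.43, edgeR q = 0.0111), and Krt19 (-2.17, edgeR q = 0.0376). Of 9 tested transcripts from outside the lung 8 were called higher, with summed levels of 20.7 to 28.6 CPM against 3.42 to 6.40 CPM in controls, and 40119 to 41134 genes had at least 1 read in these samples, against 24775 to 32492 in the other monocyte samples. Their part in the rise of Sftpb was not tested. At 14 d, where 5.34% of all genes were called lower, the club and secretory list had 4 of 11 lower and none higher, with a median of -2.12. Bpifa1, an airway defence protein, fell by 5.17 (edgeR q = 0.0343). In control monocytes Bpifa1 ranged from 0.807 to 35.0 CPM, Scgb3a1 from 0.746 to 35.6 CPM and Krt19 from 5.47 to 93.7 CPM. The lists were not fitted without control monocyte samples 3 and 4, so the part of these samples in the falls was not tested. Red blood cell transcripts had 5 of 6 called lower at 3 d and 3 of 6 at 14 d, with summed levels that ranged from 213 to 4340 CPM in control monocytes.

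**Figure D5:**
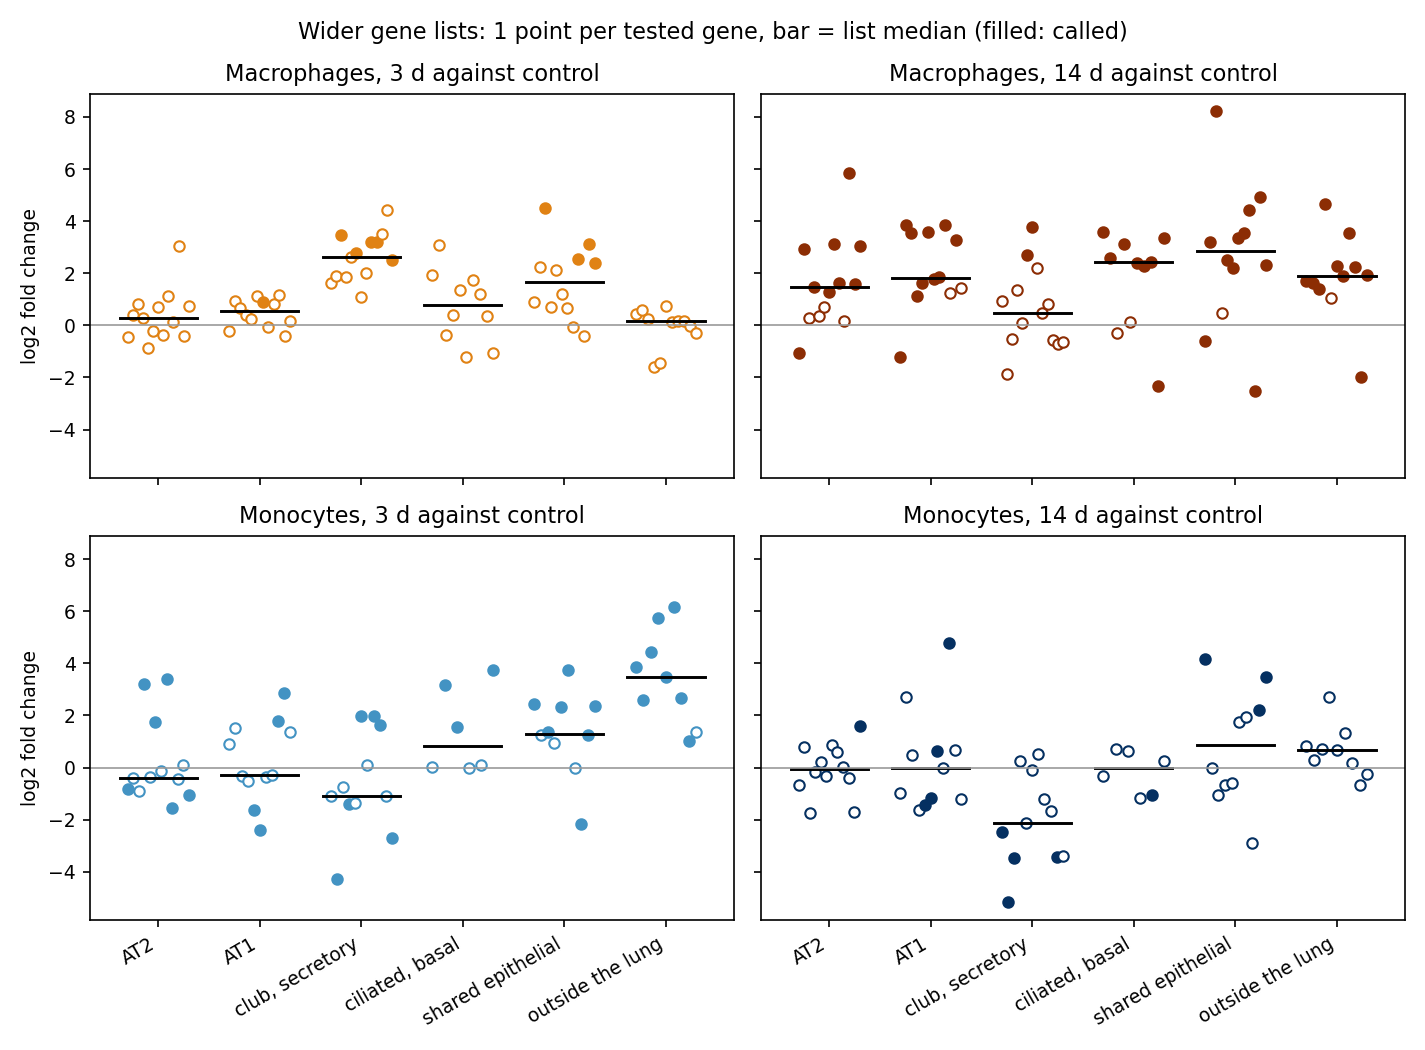
Log2 fold change against control of every tested transcript in 5 wider epithelial lists and a list from outside the lung, by cell type and time. Points are genes, filled where called, and bars are list medians: the club and secretory median is 2.62 in 3 d macrophages and -2.12 in 14 d monocytes.

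Among all tested genes, those whose log2 CPM followed Sftpc most closely were not epithelial genes. Over the 10 macrophage samples they were Ddx39b, Top3a, Gm28535, Ocel1 and Gm44321, with Pearson's r from 0.849 to 0.878. Over the 12 monocyte samples they were Dcp1b, Dynlt1c, Net1, Fcgr4 and Gabarapl2, with r from 0.872 to 0.919. Of the other 8 genes described here, Scgb3a2 (r = 0.754), Scgb1a1 (r = 0.706) and Sftpa1 (r = 0.687) were nearest to Sftpc in monocytes, where Sftpb had r = -0.064. In macrophages the nearest was Slc34a2 (r = 0.216), and Scgb1a1 had r = -0.713. The samples of a cell type share their groups and the controls in which Sftpc was high, and these values are descriptions without a test.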

How the data were processed

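RNA of sorted cells was enriched with oligo(dT), made into libraries with NEBNext Ultra and sequenced paired-end by the authors, who deposited raw read counts per gene, without normalization, in 1 table per cell type. The submitters' processing notes name STAR 2.7.2c and 2.7.3a, featureCounts 1.6.3 and DESeq2 1.26.0 and 1.28.1 on GRCm38/mm10, with no link to a cell type. The use of strand and the annotation release are not given in the sources used here. Symbols, positions and exon lengths were taken from GENCODE on GRCm38, and 31047 of 31134 macrophage and 55154 of 55421 monocyte gene IDs had a symbol. No exonic base of the 9 genes was shared with an exon of another annotated gene.

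The counts went into edgeR 4.0.16 in R 4.3.3 (filterByExpr, TMM, robust quasi-likelihood fit, two-sided), in 1 fit per cell type over its 3 groups and, between cell types, in a fit over 22 samples and the genes of both tables. Adjusted p-values are Benjamini-Hochberg over all genes tested, and calls need q under 0.05 and a fold above 1.5. Log2 CPM used a prior count of 2. Ratios were compared with exact permutation tests after adding 0.5. CPM in the text comes from the fit of each cell type. RPKM used library totals and the union of exons. The scripts were tested on simulated data. Alternatives were DESeq2 1.42.0, other scalings and filters, a replicate block, fits of only the groups compared, and leaving out samples. A count of 3 reads corresponded to 0.104 to 0.651 CPM per sample, for counting error only. Genes named from wider lists were the 2 called genes of highest mean level per list and comparison, and, by likeness to Sftpc, the 5 nearest. The values of Ear1, Itgam, Nkx2-1, Siglecf, Marco, Ly6c2, Ly6g, Car4, Cdx2, Trp63, Napsa, Hp and Tppp3 were added after values were seen. 1 gene that this rule names is not reported here. The members and lists were chosen with earlier results of these data known.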

Additional observations from a re-analysis of the deposited data

Results flagged for a closer look

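In 3 of 36 gene and group combinations with 4 samples, 1 sample lay far from the other 3 by Dixon's test at the 95% level, where chance flags about 1 in 20. Sftpc was at 33.8 CPM in 14 d monocyte sample 3, the highest of its group, against 7.94 to 10.9 CPM in the others. Epcam was at 2.42 CPM in 3 d monocyte sample 3, the highest of its group, against 0.988 to 1.17 CPM. Slc34a2 was at 0.43 CPM in control monocyte sample 2, the lowest of its group, against 2.28 to 2.45 CPM.

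The change from control differed between macrophages and monocytes by edgeR's interaction test for 3 genes at 3 d. The log2 difference of changes, macrophages minus monocytes, was 1.64 for Sftpa1 (edgeR q = 0.0258), 4.99 for Scgb1a1 (edgeR q = 0.014) and 5.80 for Scgb3a2 (edgeR q = 0.0108). All 3 macrophage samples taken at 3 d lay above the control macrophages for both Scgb1a1 and Scgb3a2. At 14 d the difference was 2.11 for Ager (edgeR q = 0.00287), with 3 of 3 macrophage samples above all control macrophages.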

How the results depend on the processing

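Of the 9 genes, counts called over the alternatives moved as follows, beside 5 (3 d monocytes), 2 (14 d monocytes), 4 (14 d against 3 d monocytes), 1 (3 d macrophages), 4 (control macrophages against control monocytes) and 1 (difference of the 14 d changes) in the reported fits. For 3 d monocytes it was 3 with upper quartile scaling, 2 with library size scaling, 1 with only genes of mean log2 CPM above 1, 3 with the replicate block and 2 without control samples 3 and 4 together, an alternative chosen after seeing the data. For 14 d monocytes it was 1 without a filter and 1 without those controls, and for 14 d against 3 d monocytes 2 with the mean filter. For 3 d macrophages it was 2 with the mean filter and 3 with DESeq2. Between the control cell types it was 7 with upper quartile scaling and 2 without the 2 control samples. For the difference of the 14 d changes it was 3 with upper quartile scaling, 3 with library size scaling, 2 with the mean filter, 2 with DESeq2 and 2 without the 2 control samples.

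Leaving out 1 sample gave counts of 1 to 5 (3 d monocytes), 1 to 2 (14 d monocytes), 3 to 4 (14 d against 3 d monocytes), 1 to 4 (3 d macrophages), 4 to 6 (14 d macrophages), 4 to 7 (14 d against 3 d macrophages), 3 to 5 (control cell types), 2 to 3 (difference of 3 d changes) and 1 to 2 (difference of 14 d changes). The log2 Sftpc to Sftpb ratio then differed by -4.32 to -3.78 (3 d), -1.75 to -0.99 (14 d) and 2.37 to 2.97 (14 d against 3 d) in monocytes, and by -2.34 to -1.91, -1.79 to -1.41 and 0.29 to 0.77 in macrophages. With fewer samples the smallest possible p rises, so lost calls of the ratio there say nothing on its stability. With Sftpa1 in place of Sftpb the differences were -1.73, 0.21 and 1.94 in monocytes and -2.42, 0.14 and 2.56 in macrophages.

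Genes that were not called and changed sign were these, each on the log2 scale. In 3 d monocytes, Epcam was at 0.41 (upper quartile), 0.43 (library size), 0.36 (replicate block), 0.02 (only the groups compared), 0.13 (DESeq2), 1.95 (without controls 3 and 4) and -0.46 to 0.66 leaving out 1 sample. Sftpd there was at -0.06 (no filter) and -0.05 to 0.45, and Scgb1a1 at 0.13 without controls 3 and 4. In 14 d monocytes without those controls, Sftpb was at 0.18, Sftpd at 0.36, Scgb1a1 at 0.44 and Epcam at 0.84. For 14 d against 3 d monocytes, Scgb1a1 was at -0.20 (upper quartile), -0.18 (library size), -0.15 (mean filter), -0.23 (replicate block) and -0.52 to 0.60, and Scgb3a2 at -0.76 to 0.20. In 3 d macrophages, Epcam was at -0.19 (replicate block) and -0.78 to 0.37, and Slc34a2 at -0.36 to 0.04. In 14 d macrophages, Scgb3a2 was at 0.36, 0.44, 0.40, 0.42, 0.13 and 0.26 (upper quartile, library size, mean filter, replicate block, only the groups compared, DESeq2) and -0.99 to 0.50, and Scgb1a1 at -0.08 to 0.90. For 14 d against 3 d macrophages, Sftpd was at 0.20, 0.33, 0.25 and 0.03 (upper quartile, library size, mean filter, DESeq2) and -0.58 to 0.10. Between control cell types, Slc34a2 was at 0.02 (library size) and Sftpd at 0.10 (without controls 3 and 4). For the difference of 3 d changes, Epcam was at 0.08 (no filter) and -0.89 to 0.42. The cause of these changes was not tested.

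Scaling mattered where many genes moved. Of all genes called, 71.8% were higher in 3 d monocytes, but 95.1% with library size and 93.2% with upper quartile scaling (median of all genes moved by 0.48 and 0.40). In 14 d macrophages 63.3% were higher, against 84.5% and 80.8% (0.43 and 0.35), and against 3 d 64.5%, with 87.5% and 81.4% (0.43 and 0.30). For 14 d against 3 d monocytes the share was 25.8%, against 5.77% and 5.72% (-0.38 and -0.42), and for 14 d monocytes 37.6% against 48.6% with library size. Between control cell types it was 55.5% against 71.2% and 43.8% (0.42 and -0.33), for the difference of 3 d changes 18.7% against 7.19% with library size and 30.7% with the mean filter, and for that of 14 d changes 45.9% against 81.5%, 81.0% and, with DESeq2, 68.0%. Sample numbers did not pair the samples: same-numbered samples of different groups correlated at -0.17 to 0.521, and in 1 of 6 group pairs, control and 14 d monocytes, 3 of 4 samples matched best with their own number. The 14 d macrophages had the lowest depth, with 3 reads equal to 0.439 to 0.651 CPM.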
